A study of Tupaia belangeri chinensis with 36 samples.

Results

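Of the 21043 genes that carry a TSDBGID identifier in the annotation of the Chinese tree shrew (Tupaia belangeri chinensis), 22 peaked in the marginal zone (MZ) of the fetal cortex at each of the 3 embryonic stages that were sequenced. These genes were chosen by their measured levels. A gene was kept when its mean in the MZ was at least 5 CPM (the usual ppm-scaled share of a gene in all counts on features, without correction for its length) and at least 3 times the mean of every other layer of the same stage, at E28, E37 and E42. Of the TSDBGID genes, 8931 reached 5 CPM in the MZ at all stages, and the same rule applied to the intermediate zone (IZ) in place of the MZ kept 0 genes. The excess of the MZ over the other layers was thus fixed by the choice, and it is described here without a test.

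The MZ is the outermost layer of the fetal cortex, directly under the pia. It holds Cajal-Retzius cells, early-born transient neurons that secrete the protein reelin, which guides migrating neurons into their layers. Interneurons on their way through the cortex, the end-feet of radial glia and ingrowing blood vessels are also found there. Below it lies the cortical plate (CP) of young neurons, whose outer and inner parts are written CPo and CPi, then the IZ of migrating neurons and axons, and then the germinal layers, which are the outer subventricular zone (OSVZ), the inner subventricular zone (ISVZ) and the ventricular zone (VZ).

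Each library was made from the poly-A RNA of a cortical layer that was cut by laser from Nissl-stained frozen sections, and the labels name no treatment or genotype. The E28 libraries were 2 for every layer, from the MZ over the CP, IZ, OSVZ and ISVZ to the VZ. Those of E37 were 2 for the MZ, CPo and CPi, 1 for a CP that was not divided and 3 for the IZ, and the germinal layers of E37 were not analysed here. Those of E42 were 2 for the MZ, CPo, CPi, IZ, OSVZ and ISVZ and 1 for the VZ, since the file of VZ replicate 2 of E42 repeated that of E28 for all 76871 features and was left out. The labels do not say whether replicates came from separate animals, so the p-values measure the spread between these libraries, which may be technical. In the main fit this spread was estimated over all 18 groups of layer and stage together, and not from the MZ libraries alone. In such bulk RNA, fewer cells of a type and less RNA per cell cannot be told apart. The files pair no TSDBGID identifier with a gene symbol, and 0 of them were found in the RefSeq gene table, so the MZ label was not checked against reelin or other markers, and the genes are reported by identifier.

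A library held between 17932690 and 102042743 counts on features (median 31756620, n = 35). The MZ libraries spanned this whole range, from 17932690 in E37 replicate 2 to 102042743 in E42 replicate 1, and every one of the 22 genes had at least 45 counts in each MZ library. All 22 passed the filter on low counts, which the MZ libraries alone could satisfy, together with 15911 TSDBGID genes in all. The 6 MZ libraries did not give the same picture of these genes. At E28, replicate 1 was higher than replicate 2 for 20 of the 22, with a median ratio of 2.185 and 15 genes more than 2 times higher. Of all TSDBGID genes tested, 49.4% were higher in replicate 1 and 17.2% were more than 2 times higher. At E37, replicate 2 was higher than replicate 3 for 6 of the 22 (median ratio 0.5911), against 48.3% of all genes. At E42, replicate 1 was higher than replicate 2 for 5 of the 22 (median ratio 0.7836), against 62.2% of all genes. There 0 of the 22 differed by more than 2 times, whereas 12.7% of all genes were more than 2 times higher and 4.13% more than 2 times lower in replicate 1. The E28 pair therefore differed most for these genes, and the part of this difference in the stage comparisons was not tested beyond leaving out each library.

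The 22 genes together took 11673 and 4122.3 CPM in the MZ libraries of E28, 4290.8 and 7010 CPM in those of E37, and 3192.9 and 3276 CPM in those of E42. In the 29 libraries of the other layers their sum lay between 39.19 and 258.6 CPM. The ratio of the MZ mean to the highest other layer ranged from 3.61 to 457.9 at E28 (median 18.91), from 3.127 to 594 at E37 (median 33.04) and from 3.075 to 300.8 at E42 (median 13.43). For 10 genes this ratio was above 10 at all stages, and for 8 genes it fell below 5 at some stage. For 21 of the 22 genes the lower MZ library stood above every other library of its stage at all 3 stages, which held for 1.4% of the TSDBGID genes tested. The rule used the same values, so nothing is read from this count. The exception was TSDBGID.26996, at 2.15 CPM in E28 MZ replicate 2 and 4.23 CPM in E28 IZ replicate 1. Under the stricter demand that each MZ library exceed each other library by at least 3 times, 12 of the 22 genes remained.

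The layer that came next after the MZ is given by stage, from layers that were not the same at every stage. The CP was undivided at E28 and divided into CPo and CPi at E42. Some of these ranks rest on few counts, such as the VZ for TSDBGID.7408 at E28 (3 counts) and the CPo for TSDBGID.13305 at E37 (2 counts). At E28 it was the CP for 10 genes, the VZ for 4, the IZ and OSVZ for 3 each, and the ISVZ for 2. At E37, where germinal layers were not analysed, it was the IZ for 9 genes, the CPo for 7, the undivided CP for 4 and the CPi for 2. At E42 it was the IZ for 9, the ISVZ for 7, the CPo and OSVZ for 2 each, and the CPi and VZ for 1 each. The CPo, which adjoins the MZ, thus came next for 7 and then 2 of the 22 genes.

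**Figure D1:**
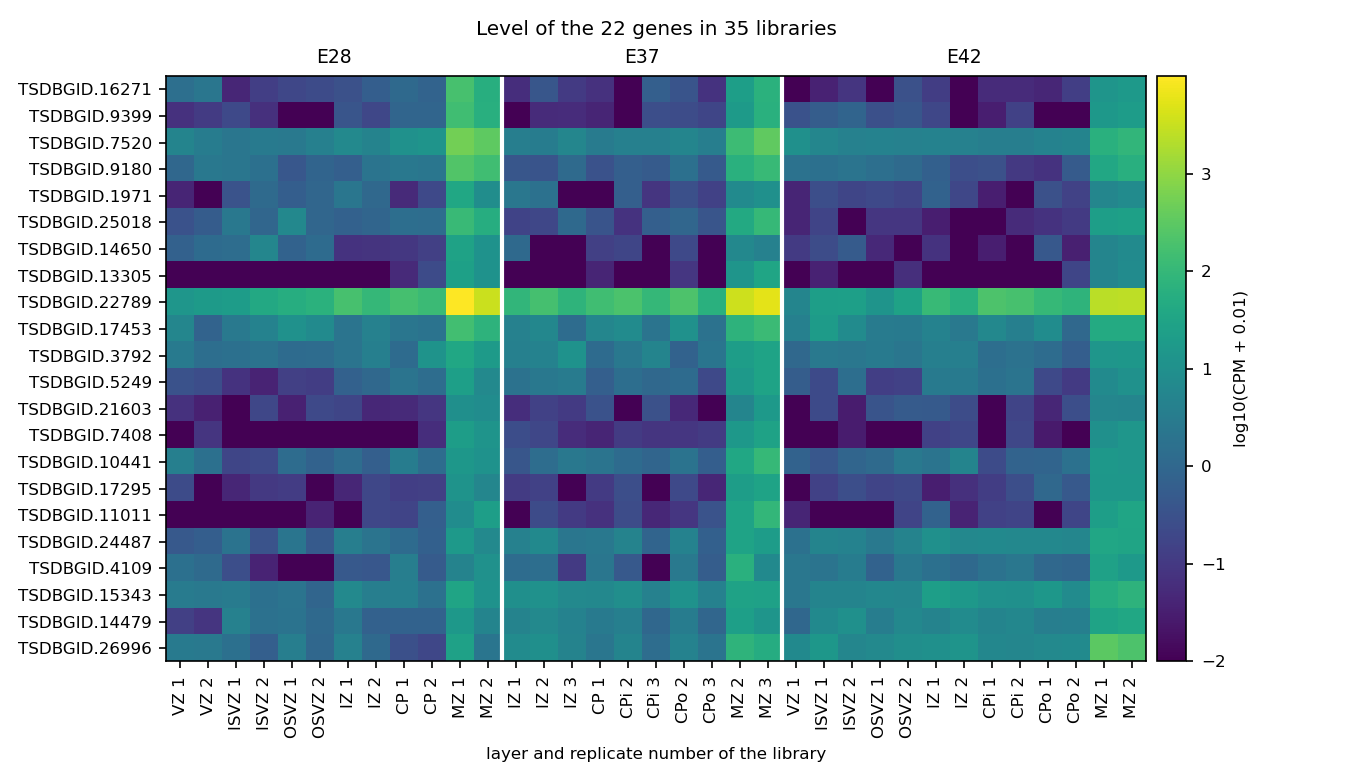
Level of each of the 22 genes (rows, ordered by the ratio of the MZ mean at E42 to that at E28) in the 35 libraries (columns, by stage, layer and replicate number), as log10(CPM + 0.01) on the colour scale. The MZ columns are the brightest of each stage, and the row of TSDBGID.22789 stays above 5 CPM in every library.

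TSDBGID.22789 had the highest mean in the MZ. Its level was 9996.8 and 3260.4 CPM in the E28 libraries, 3531 and 5689.9 CPM at E37, and 2440.8 and 2515.6 CPM at E42, which gives means of 6629 ± 4763, 4610 ± 1527 and 2478 ± 52.9 CPM (SD, n = 2 each). It made up 76.4% to 85.6% of the counts of the 22 genes in an MZ library, and 0.244% to 1.00% of all counts there, a share that also reflects the length of its transcript. The gene was also present in the other layers, at 59.7 to 214 CPM in the IZ and CP libraries and at 5.39 to 67.1 CPM in the germinal ones. In the MZ, E42 was lower than E28 and E37 in both libraries, but the change from E28 to E42 did not pass the test (log2 fold change −1.28, SE 0.60, edgeR adjusted p = 0.217).

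TSDBGID.7520 was the second by MZ mean. Its level was 536.7 and 320.1 CPM at E28, 129.8 and 349.6 CPM at E37 and 63.1 and 87.2 CPM at E42. The other layers lay between 2.29 and 12.7 CPM, so that the gene was detected in all layers at all stages.

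The largest excess of the MZ, taken as the smallest of the 3 stage ratios, was that of TSDBGID.13305, with a ratio of at least 79.7 at every stage. This gene was at 25.7 and 11.6 CPM in the MZ at E28, at 13.4 and 34.1 CPM at E37 and at 5.51 and 7.89 CPM at E42. It had no count in 22 of the 29 other libraries and at most 9 counts in any of them, against 170 to 1272 in an MZ library. TSDBGID.7408 followed, with ratios of 457.9, 140.8 and 78.5 at E28, E37 and E42. It was at 21.7 and 12.5 CPM in the MZ at E28, at 16.1 and 28.2 CPM at E37 and at 10.3 and 14.0 CPM at E42. Of the other libraries, 14 had no count of it and the highest had 8. Both genes thus stayed near the detection limit outside the MZ, where a library without a count allows up to 3 counts.

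At the limits of the rule, the smallest ratios inside were 3.076 for TSDBGID.5249, set by the IZ at E42, and 3.127 for TSDBGID.15343, set by the IZ at E37. The nearest genes outside were TSDBGID.26791, with a smallest ratio of 2.787 set by the OSVZ at E42, and TSDBGID.26583, with 2.582 set by the IZ at E28. TSDBGID.26583 had MZ means of 80.4, 102.2 and 196.8 CPM at E28, E37 and E42, and the IZ stood at 31.1, 31.9 and 59.6 CPM. With limits of 2 and 5 in place of 3, the rule kept 42 and 14 genes.

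Whether the 22 genes changed with stage within the MZ was tested across all features. The rule compared no stage with another, but it set a minimum MZ level and a ratio to the other layers at each stage. A gene that missed either limit at any stage was left out, so the shares of all genes given below are not comparable in full. The MZ means of the 22 genes followed 4 courses. From E28 over E37 to E42, the means of 9 genes fell at both steps, those of 8 rose and then fell, those of 4 rose at both steps and that of 1 fell and then rose. In the first kind, the E28 mean was 1.888 to 7.556 times that of E42 (median 3.507). In the kind that rose at both steps, the E42 mean was 2.679 to 17.41 times that of E28 (median 3.095), and the next layer was the IZ at E37 for all 4 and at E42 for 3 of them. The MZ libraries of E28 and E42 did not overlap for 19 of the 22 genes, 7 higher and 12 lower at E42. The shares of all genes with each course, or without overlap, were not computed, so nothing is read from the counts of genes by course or without overlap.

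**Figure D2:**
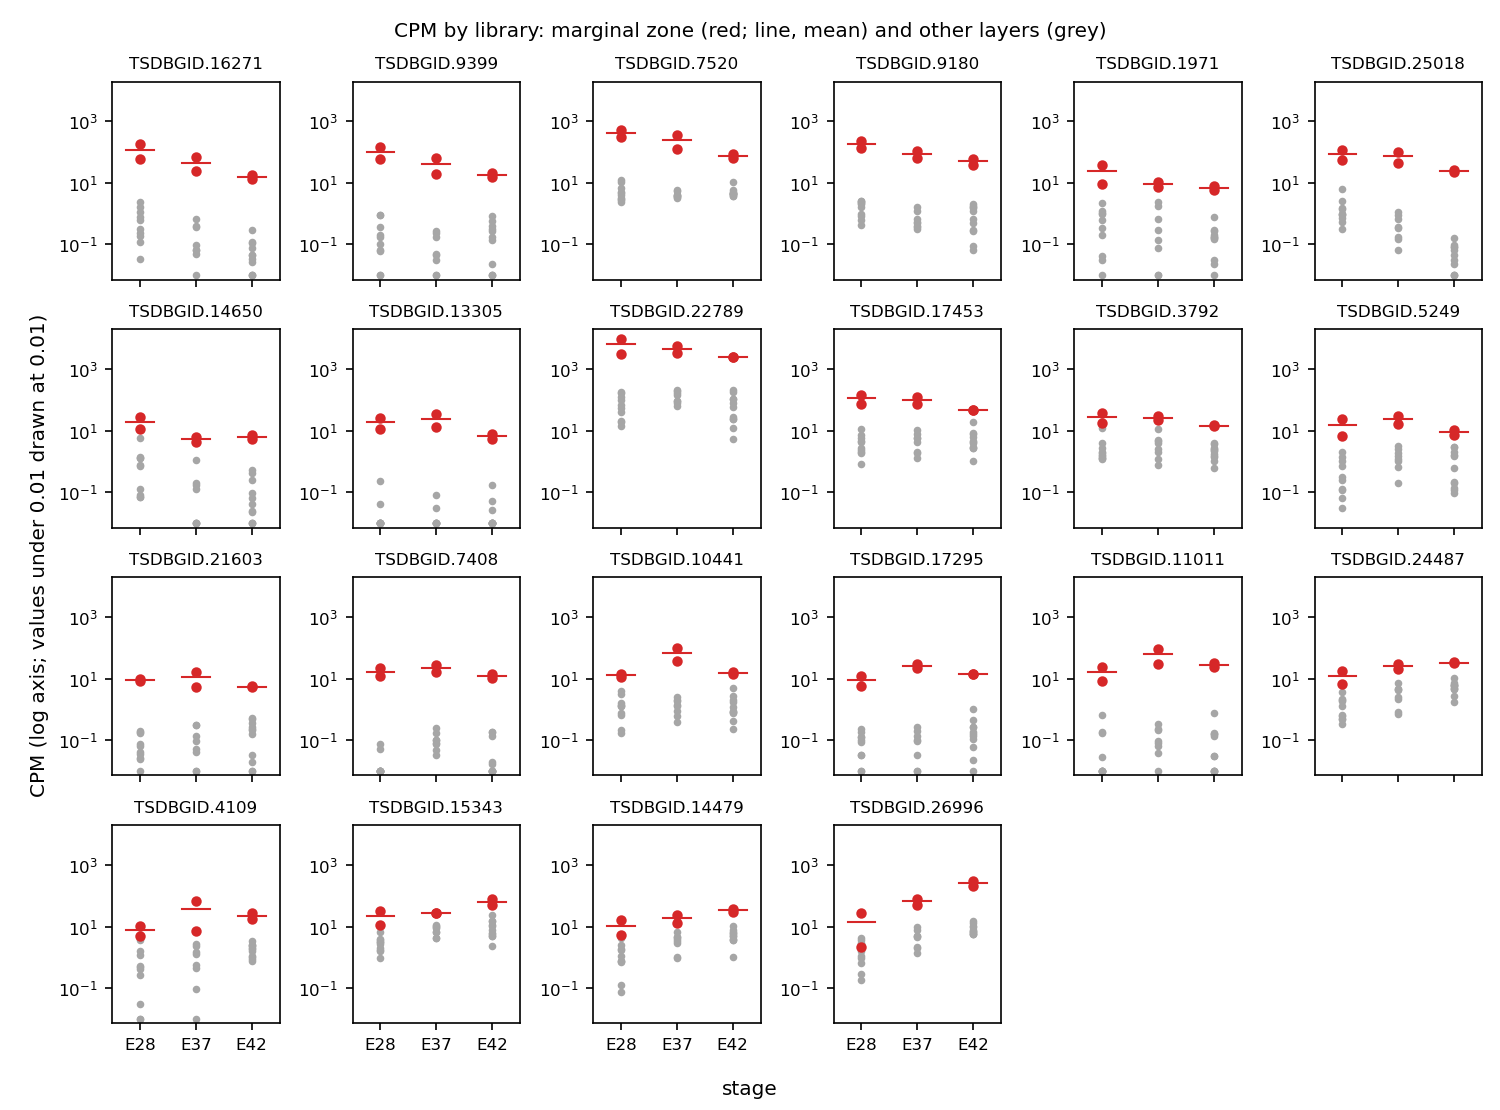
CPM (log axis) of the 22 genes by stage, with each MZ library as a red point, the MZ mean as a red line, and each library of another layer as a grey point; values under 0.01 are drawn at 0.01. The panels are ordered from the genes whose MZ mean was lowest at E42 relative to E28 to TSDBGID.26996, whose E42 mean was 17.41 times its E28 mean.

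From E28 to E37, edgeR's quasi-likelihood test called 0 of the 22 genes higher and 0 lower in the MZ, against 4.1% higher and 1.34% lower of all TSDBGID genes tested. At an unadjusted p under 0.05 there were 3 higher and 1 lower, and DESeq2 called 1 higher and 0 lower. For counts at an unadjusted p, by DESeq2 or in other alternatives, here and below, no share of all genes was computed. Nothing is read from those counts about the 22 genes as a set. With the replicate number as a block, 3 were called higher, although the number was not shown to pair libraries across stages. Without E28 MZ replicate 1, 1 gene was called higher, and without E37 MZ replicate 3, 1 was called lower. From E37 to E42, 0 were called higher and 1 lower (all genes 2.51% higher and 0.371% lower), with 2 and 3 at an unadjusted p under 0.05 and 0 and 2 by DESeq2. The gene that fell was TSDBGID.7520, whose values are given above and whose libraries of the 2 stages did not overlap. Its log2 fold change was −1.63 (SE 0.34, adjusted p = 0.00833). The call was lost without E37 MZ replicate 3 (−0.854, adjusted p = 0.29) and without E42 MZ replicate 1 (−1.4, adjusted p = 0.169). It was also lost with all 36 libraries (adjusted p = 0.0624) and in a fit of these groups alone (adjusted p = 0.123).

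The whole span from E28 to E42 was added as a comparison after the values had been seen. In it 2 of the 22 genes were called higher and 3 lower, against 11.2% higher and 3.46% lower of all TSDBGID genes tested. The number called lower was 1 without E28 MZ replicate 1, E42 MZ replicate 1 or E42 MZ replicate 2. The number called higher was 0 without E28 MZ replicate 2 and in a fit of these groups alone, and 1 without either E42 MZ library. The median log2 fold change of the 22 was −0.72, with a range from −2.78 to 4.24.

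TSDBGID.26996 rose most. It was at 27.0 and 2.15 CPM in the MZ at E28, at 79.9 and 51.7 CPM at E37 and at 299.9 and 207.5 CPM at E42. Each stage lay above the one before without overlap, although the E28 libraries differed by 12.53 times. The log2 fold change from E28 to E42 was 4.24 (SE 0.97, adjusted p = 0.0079), and without E28 MZ replicate 2, the low library, it was 3.35 (adjusted p = 0.0526). In a fit of these groups alone the adjusted p was 0.0838. In the other layers the gene ranged from 0.179 to 4.23 CPM at E28 and from 5.56 to 15.1 CPM at E42.

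TSDBGID.15343 also rose. Its MZ level was 31.2 and 11.4 CPM at E28, 28.3 and 27.8 CPM at E37 and 50.9 and 76.5 CPM at E42, where both libraries were above all earlier ones. The log2 fold change from E28 to E42 was 1.72 (SE 0.54, adjusted p = 0.0444). Without E28 MZ replicate 2 the adjusted p was 0.29, without E42 MZ replicate 1 it was 0.0578 and without E42 MZ replicate 2 it was 0.267. It was 0.0654 with DESeq2's size factors and 0.138 in a fit of these groups alone. Higher means at E42 were not confined to the MZ. The IZ mean of this gene was 5.28 CPM at E28 and 19.4 CPM at E42. The CP mean was 2.79 CPM at E28, and at E42 the CPi and CPo were at 10.6 and 11.3 CPM. At E28 and E42 the ISVZ was at 2.37 and 4.98 CPM, the OSVZ at 1.47 and 5.76 CPM and the VZ at 2.89 and 2.37 CPM.

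TSDBGID.16271 and TSDBGID.9399 had the largest falls of the 22 in log2 fold change. TSDBGID.16271 was at 179.1 and 57.8 CPM in the MZ at E28, at 23.4 and 67.1 CPM at E37 and at 13.6 and 17.8 CPM at E42. TSDBGID.9399 was at 144.7 and 60.2 CPM at E28, at 19.0 and 66.0 CPM at E37 and at 15.5 and 20.3 CPM at E42. In both genes the E42 libraries lay below those of E28, and the E37 libraries overlapped with E28. The log2 fold change from E28 to E42 was −2.78 for TSDBGID.16271 (SE 0.84, adjusted p = 0.0409) and −2.38 for TSDBGID.9399 (SE 0.67, adjusted p = 0.0269). Neither call held when any of 3 MZ libraries was left out. The adjusted p was 0.277 and 0.196 for the 2 genes without E28 replicate 1, 0.251 and 0.21 without E42 replicate 1, and 0.164 and 0.116 without E42 replicate 2. The call of TSDBGID.16271 was also lost without the filter on low counts (0.0963), with all 36 libraries (0.158) and by DESeq2 (0.0676), each an adjusted p. The fall of TSDBGID.7520 over the same span was −2.37 (SE 0.35, adjusted p = 3.24e-05), and its adjusted p was at most 0.0182 in all alternatives.

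**Figure D3:**
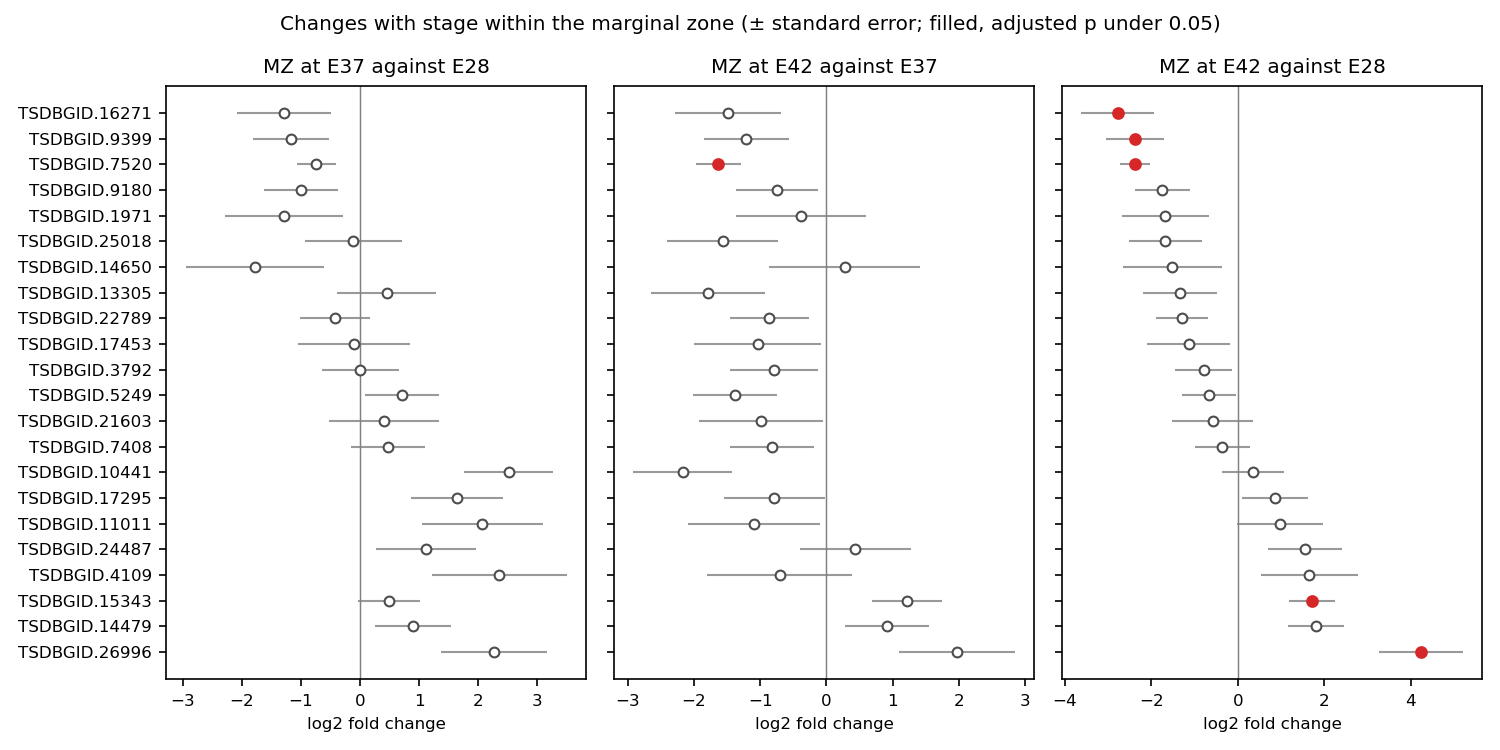
Log2 fold change between stages within the MZ (horizontal axis) for each of the 22 genes, from E28 to E37, from E37 to E42 and from E28 to E42. Points are edgeR estimates, bars are ± 1 standard error and filled points have an adjusted p under 0.05, of which there are 0, 1 and 5.

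It was then asked whether the stage steps of the MZ differed from those of the CP. From E28 to E37, 0 genes had a higher and 0 a lower step in the MZ (all genes 0.409% and 0.195%), with 4 and 0 at an unadjusted p under 0.05 and 1 and 0 by DESeq2. From E37 to E42 the counts were also 0 and 0 (all genes 0.264% and 0.044%), with 0 and 2 at an unadjusted p under 0.05 and 0 and 1 by DESeq2. The rule used the MZ and CP levels of every stage, so nothing is read from these counts.

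The rule compared no layer below the MZ with another, so these layers were compared next. Between the outer and inner CP at E37, 0 genes were called higher in the CPo and 0 lower (all genes 0.0% and 0.0314%), with 0 and 0 at an unadjusted p under 0.05 and by DESeq2. At E42, 0 were called higher and 1 lower in the CPo (all genes 0.308% and 0.754%), with 2 and 3 at an unadjusted p under 0.05 and 0 and 1 by DESeq2. The gene called was TSDBGID.5249, which was higher in the part of the CP farther from the MZ. Its level was 0.199 and 0.0961 CPM in the CPo and 1.59 and 2.05 CPM in the CPi, without overlap, from 16 and 162 counts. The log2 fold change was −3.55 (SE 0.76, adjusted p = 0.0175). The call was lost when any of the 4 libraries was left out, with adjusted p of 0.0638 and 0.128 without CPi replicates 1 and 2 and of 0.148 and 0.49 without CPo replicates 1 and 2. The change of this difference from E37 to E42, a test added after the values had been seen, called 0 genes in either direction (all genes 0.0% and 0.0%), with 1 higher and 3 lower at an unadjusted p under 0.05 and 0 by DESeq2.

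Between the IZ and the CP at E28, 0 genes were called higher in the IZ and 0 lower (all genes 6.02% and 2.73%), with 2 and 3 at an unadjusted p under 0.05 and 2 and 1 by DESeq2. With the replicate number as a block, 1 was called higher. At E37 the counts were 0 and 0 (all genes 4.09% and 1.99%), with 3 and 0 at an unadjusted p under 0.05 and 2 and 0 by DESeq2, and 1 higher with the block. At E42, 1 gene was called higher and 1 lower in the IZ (all genes 10.2% and 8.43%), with 3 and 1 by DESeq2 and 2 and 1 with the block.

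The gene called higher was again TSDBGID.5249. The IZ libraries of E42 were at 2.90 and 2.95 CPM, above the 2 CPi libraries and far above the 2 CPo libraries, and the log2 fold change was 2.24 (SE 0.56, adjusted p = 0.00738; 0.0675 without IZ replicate 2). The gene called lower was TSDBGID.17295. It had 3 counts over both IZ libraries, at 0.0221 and 0.0590 CPM, and 100 counts over the CPi and CPo, at 0.112 to 1.06 CPM. The pooled CP level was 13.79 times that of the IZ, with an exact 95% interval of 4.585 to 68.01 that covers counting error only. Its log2 fold change was −3.41 (SE 1.10, adjusted p = 0.0433), and the call was lost without IZ replicate 1 (0.36), IZ replicate 2 (0.141), CPo replicate 1 (0.117) or CPi replicate 2 (0.123), and with all 36 libraries (0.0564), each an adjusted p. The change of the IZ against the CP from E28 to E42 was also added after the values had been seen. It called 0 genes in either direction (all genes 0.993% and 0.993%), with 6 higher and 0 lower at an unadjusted p under 0.05 and 2 and 0 by DESeq2. The shares of all genes are those at edgeR's adjusted p and do not apply to the counts at the unadjusted p or by DESeq2.

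The germinal layers (the mean of VZ, ISVZ and OSVZ) were compared with the IZ and CP at E28 and E42. At E28, 1 of the 22 genes was called higher in the germinal layers and 6 lower, against 22.0% and 19.3% of all TSDBGID genes tested. With the replicate number as a block the counts were 2 and 7. At E42, 2 were called higher and 3 lower, against 23.6% and 22.3%. The shares of the 22 genes are not comparable in full with those of all genes, since some of the 22 passed the filter through the MZ alone, such as TSDBGID.13305 and TSDBGID.7408 with at most 9 and 8 counts in a library outside it. The number lower at E28 was 4 to 6 when single libraries were left out, and the number lower at E42 was 6 by DESeq2.

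The gene called higher at E28 was TSDBGID.14650. Its 6 germinal libraries lay between 0.729 and 5.60 CPM (median 1.26), and its 4 IZ and CP libraries between 0.0671 and 0.128 CPM, without overlap. The log2 fold change was 4.12 (SE 1.05, adjusted p = 0.00424). At E42 the germinal libraries ranged from 0 to 0.515 CPM and those of the IZ, CPi and CPo from 0 to 0.431 CPM, with overlap.

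TSDBGID.22789 was lower in the germinal layers at both stages. At E28 its germinal libraries lay between 14.2 and 67.1 CPM and its IZ and CP libraries between 98.4 and 177.5 CPM. At E42 the ranges were 5.39 to 28.0 CPM and 59.7 to 214 CPM. The groups did not overlap at either stage, and the log2 fold change was −2.14 at E28 (SE 0.38, adjusted p = 0.00024) and −3.19 at E42 (SE 0.45, adjusted p = 1.43e-05). TSDBGID.5249 was also called lower at both stages. Its germinal libraries reached 0.317 CPM at E28, under the 0.704 to 2.05 CPM of the IZ and CP, and the log2 fold change was −3.27 (SE 0.52, adjusted p = 8.9e-06). At E42 its groups overlapped and the log2 fold change was −1.31 (SE 0.48, adjusted p = 0.0346), which was lost without CPo replicate 1 (adjusted p = 0.156) and without OSVZ replicate 2 (adjusted p = 0.0532).

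TSDBGID.9399 changed sides between the stages. At E28 the germinal libraries had 14 counts in all, with levels of 0 to 0.199 CPM (median 0.0611), and the IZ and CP had 73 counts, with levels of 0.177 to 0.902 CPM (median 0.632). At E42 the germinal libraries had 97 counts, at 0.278 to 0.839 CPM (median 0.399), and the IZ, CPi and CPo had 15, at 0 to 0.177 CPM (median 0.0112). The IZ and CP were pooled 8.986 times the germinal level at E28 (exact 95% interval 5.029 to 17.24), and the germinal level was 9.484 times theirs at E42 (5.476 to 17.6), intervals that cover counting error only. The calls were lower at E28 (adjusted p = 0.00138) and higher at E42 (adjusted p = 0.000926). Both OSVZ libraries of E28 and both CPo libraries of E42 had 0 counts, so the fitted folds of −3.84 and 3.71 depend on the prior count and bound nothing.

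A test of the change of the germinal difference from E28 to E42, added after the values had been seen, called 3 of the 22 genes higher and 0 lower, against 8.55% and 11.3% of all TSDBGID genes tested. At an unadjusted p under 0.05 there were 5 and 1, and DESeq2 called 5 and 0. TSDBGID.9399 had the largest change of the 3 (adjusted p = 0.000155). TSDBGID.9180 was at 0.416 to 2.46 CPM in the germinal libraries of E28 and at 0.637 to 2.46 CPM in the IZ and CP, with overlap. At E42 it was at 1.17 to 1.98 CPM in the germinal libraries and at 0.0663 to 0.664 CPM in the others, without overlap. TSDBGID.7520 was at 2.29 to 5.04 CPM in the germinal libraries of E28 and at 4.72 to 12.7 CPM in the IZ and CP, and at E42 at 4.35 to 10.5 CPM and 3.71 to 5.04 CPM. The value of 10.5 CPM was that of the only VZ library of E42. Its ISVZ and OSVZ libraries, at 4.35 to 5.77 CPM, overlapped with the IZ, CPi and CPo. The MZ means of all 3 genes were lower at each later stage. The pooled ratio of the germinal layers to the IZ and CP was higher at E42 than at E28. It was 9.484 against 0.1113 for TSDBGID.9399, 5.486 against 0.7685 for TSDBGID.9180 and 1.33 against 0.3753 for TSDBGID.7520. For TSDBGID.9180 the pooled germinal level was 1.424 CPM at E28 and 1.645 CPM at E42, and that of the IZ and CP was 1.852 and 0.2998 CPM. For TSDBGID.7520 the same values were 3.377 and 5.749 CPM, and 8.998 and 4.323 CPM. For TSDBGID.9399 they were 0.0669 and 0.527 CPM, and 0.601 and 0.0555 CPM.

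Of the other calls at E28, those of TSDBGID.3792 and TSDBGID.4109 were lost in 4 and 9 of the 16 alternatives. TSDBGID.3792 was at 12.1 CPM in CP replicate 2 and at 1.23 to 3.90 CPM in the other IZ and CP libraries, and its log2 fold change of −1.36 went to −0.125 without that library (adjusted p = 0.97). Without IZ replicate 2 or VZ replicate 2 its adjusted p was 0.116 or 0.0565. TSDBGID.4109 was at 3.65 CPM in CP replicate 1 and at 0.426 to 0.512 CPM in the other IZ and CP libraries, and its adjusted p was 0.231 without that library. At E42 the gene called lower in the germinal layers beside those named above was TSDBGID.15343, at 2.37 to 5.97 CPM there and at 7.76 to 23.1 CPM in the IZ, CPi and CPo.

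**Figure D4:**
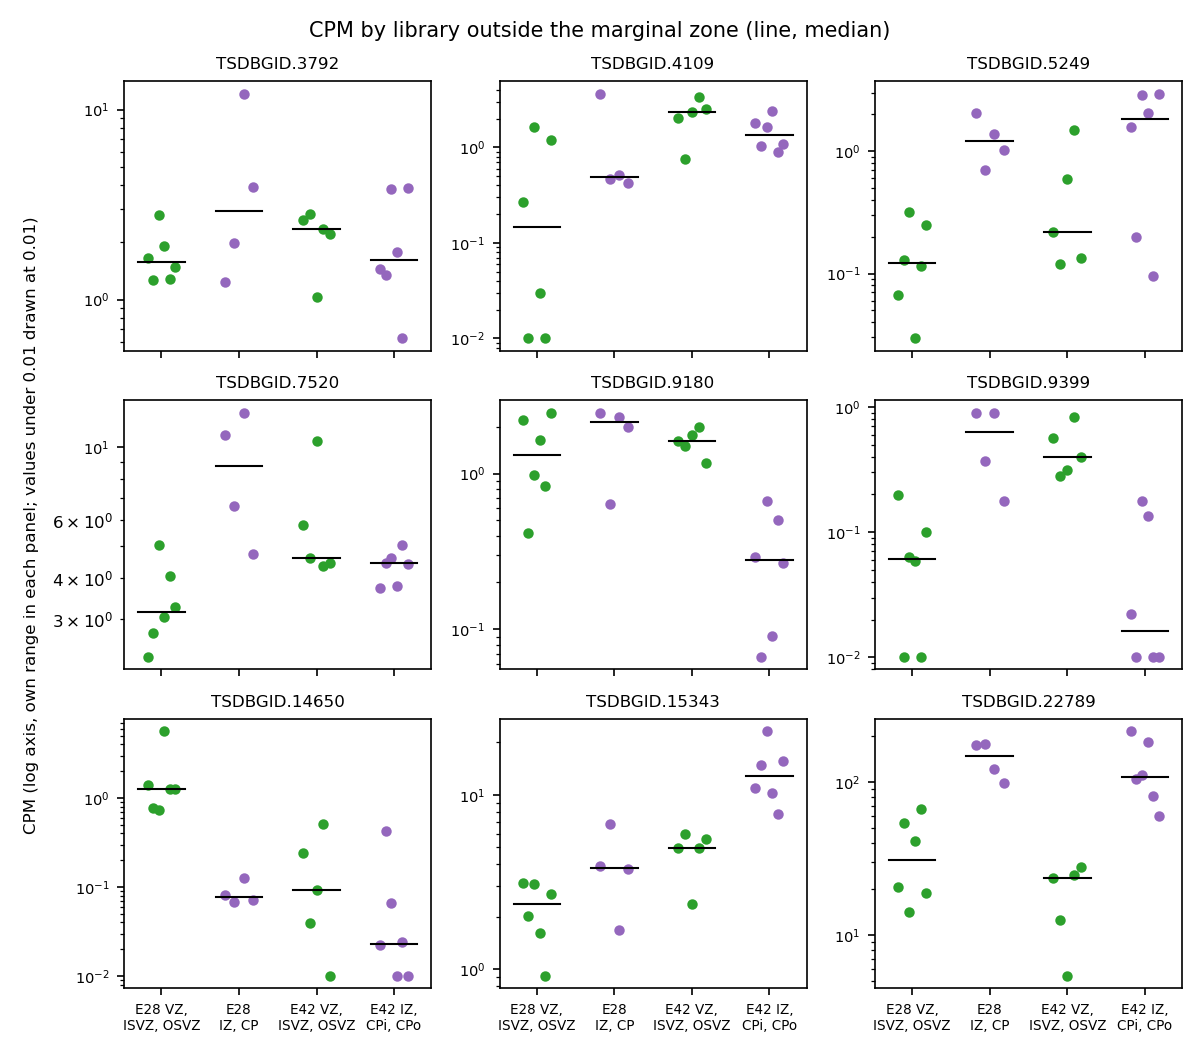
CPM of each library outside the MZ (log axis with its own range in each panel) for the 9 genes called between germinal layers (green) and IZ and CP (purple) at E28 or E42, with the median as a line and values under 0.01 drawn at 0.01. For TSDBGID.9399 the germinal points lie mostly below the others at E28 and all above them at E42, while for TSDBGID.22789 they lie below at both stages.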

How the data were processed

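RNA-seq counts of 36 libraries of cortical layers were used, 35 after leaving out the repeated VZ file of E42. The authors trimmed adapters, mapped reads with HISAT2 to the genome of the species and counted with HTSeq-count, and the deposited values are raw integer counts per feature. Whether counting used strand is not given in the sources used here. The counter's 5 lines for reads not assigned to a feature, which held 40.7% to 52.0% of the summed counts of a library, were left out. CPM, a gene's share of these counts on the usual ppm scale, were computed without further scaling. The 22 genes, the comparisons and the rule for named genes were chosen with earlier results of these data known.

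Counts were fitted in R 4.3.3 with edgeR 4.0.16 (TMM, filterByExpr with a minimum count of 10, 18 groups, 1 per layer and stage, 17 residual degrees of freedom, robust quasi-likelihood test). This left 26858 features, 15911 of them TSDBGID genes. The common biological coefficient of variation (BCV) was 0.378. A gene was called at a Benjamini-Hochberg adjusted p under 0.05 over all features tested. The CP of E37 weighted its 5 libraries alike, and that of E42 was the mean of CPi and CPo. Alternatives were DESeq2 1.42.0, DESeq2's size factors in edgeR, no filter, all 36 libraries, only the groups compared, the replicate number as a block, and single libraries left out.

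Deviations of same-numbered libraries from their group means correlated above 0.1 for all 15 layer pairs of E28 (0.167 to 0.265) and in 6 of 6 at E37 (0.129 to 0.272), so the number was taken to pair libraries there. At E42 this held for the 10 pairs without the OSVZ (0.13 to 0.232) and not for the 5 with it, so the number was taken to pair the other layers with 2 libraries, a choice made after these values were seen. The labels do not say what the number marks. The main fit did not use this pairing, which entered only through the block run as an alternative.

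Named are the 2 genes of highest MZ mean, the 2 of largest smallest ratio, those next to the limits of the rule, the called MZ changes without overlap of the libraries (at most 2 a direction), and the largest call of each direction in every other comparison. Others are named where a count of 5 or fewer, or a call that rested on few libraries, made it necessary, after their values were seen.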

Additional observations from a re-analysis of the deposited data

Results flagged for a closer look

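Of the 22 genes, 3 differed between E28 and E42 in how the germinal layers stood to the IZ and CP, by the test of the change itself, a test chosen with the values known. The change on the log2 scale was 7.55 for TSDBGID.9399, a value that depends on the prior count because whole layers had 0 counts. It was 2.79 for TSDBGID.9180 (SE 0.66, adjusted p = 0.00737 by edgeR, 0.0516 without E28 IZ replicate 2) and 1.66 for TSDBGID.7520 (SE 0.31, adjusted p = 0.000541 by edgeR). No group had 4 or more libraries, so single outlying libraries were not looked for.

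Outside the TSDBGID genes, the same rule kept 1 of 31776 features with a LINC name. LINC-LHX5-1, whose name holds that of LHX5, a transcription factor known from Cajal-Retzius cells, had a mean of 58.0 CPM in the MZ over the 3 stages. Its MZ libraries were at 134.2 and 83.7 CPM at E28, at 30.6 and 69.1 CPM at E37 and at 12.1 and 18.2 CPM at E42, and the highest other layer was at 1.46, 0.182 and 0.0618 CPM.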

How the results depend on the processing

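The rule kept 22 genes with TMM-scaled CPM and with all 36 libraries, 42 with a ratio of 2, 14 with a ratio of 5, 12 when every MZ library had to be at least 3 times every other library of its stage, and 18 to 22 when an MZ library was left out. No call of a single gene changed direction under any alternative run. Over all alternatives, 332 repeats kept such a call and 46 lost it, a total that pools all comparisons. For the MZ from E28 to E42, the call of TSDBGID.16271 was lost in 6 alternatives and kept in 5. That of TSDBGID.15343 was lost in 5 and kept in 6. The numbers lost and kept were 3 and 8 for TSDBGID.9399, 2 and 9 for TSDBGID.26996, and 0 and 11 for TSDBGID.7520. From E37 to E42, the call of TSDBGID.7520 was lost in 4 and kept in 7. The cause of the differences below was not tested.

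In fits of the compared groups alone, the genes called were 2 lower in the CPo at E42, 5 higher and 2 lower in the IZ at E42, 2 higher and 3 lower in the MZ from E37 to E42, 0 higher from E28 to E42 and 5 lower in the germinal layers at E42. The change of the IZ against the CP then called 1 higher and that of the germinal layers 1 lower. DESeq2 called 2 higher and 1 lower in the IZ at E28, 2 higher at E37 and 3 higher at E42, 1 higher in the MZ from E28 to E37 and 2 lower from E37 to E42. It also called 1 higher and 1 lower step of the MZ against the CP (from E28 to E37 and from E37 to E42), 2 higher changes of the IZ against the CP, 5 higher changes of the germinal layers and 6 genes lower there at E42. Without the filter, 2 were lower in the IZ at E28, 3 higher at E37 and 3 higher at E42, 1 was higher in the MZ at each step, 1 step of the MZ was lower than that of the CP from E37 to E42, 3 changes of the IZ against the CP were higher, and 5 changes of the germinal layers were higher and 1 lower. With all 36 libraries, 0 were lower in the IZ at E42 and 0 lower in the MZ from E37 to E42. DESeq2's size factors left 1 higher in the MZ from E28 to E42. Thinning E42 MZ replicate 1 to the depth of replicate 2 left the counts for the MZ as they were.

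With the replicate block, the genes called were 1, 1 and 2 higher in the IZ at E28, E37 and E42, 3 higher in the MZ from E28 to E37, 2 higher in the germinal layers at E28, 5 lower there at E42, and 1 lower change of the germinal layers. The block ended no call of a single gene. At E42 the number was not shown to pair the OSVZ with other layers, nor any libraries across stages.

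When single libraries were left out, the genes called higher and lower in the MZ were 0 to 1 and 0 to 1 from E28 to E37, 0 and 0 to 1 from E37 to E42, and 0 to 3 and 1 to 3 from E28 to E42. They were 0 lower in the CPo at E42. In the IZ they were 0 and 0 to 1 at E28 (1 without CP replicate 1), 0 to 1 and 0 at E37 (1 without either CPi library, CPo replicate 2 or IZ replicate 3), and 0 to 3 and 0 to 1 at E42 (3 without CPi replicate 2, 0 without IZ replicate 2). In the germinal layers they were 1 and 4 to 6 at E28, and 2 and 2 to 4 at E42. Steps of the MZ lower than those of the CP were 0 to 1 from E37 to E42, higher changes of the IZ against the CP 0 to 1 and higher changes of the germinal layers 2 to 4. Leaving out a library of a pair assumes that the remaining library varies like the other groups. Outside the MZ many of the genes had few counts, and a library without a count allows up to 3.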

Other observations

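Among the genes whose MZ mean rose and then fell, TSDBGID.10441 and TSDBGID.17295 were higher at E37 without overlap with either other stage (chosen after their values were seen). TSDBGID.17295 was at 12.1 and 5.69 CPM in the MZ at E28, at 22.1 and 29.7 CPM at E37 and at 14.7 and 14.7 CPM at E42. The MZ level of TSDBGID.10441 was 14.7 and 11.5 CPM at E28, 37.1 and 103.1 CPM at E37 and 16.2 and 14.2 CPM at E42. Its log2 fold changes of 2.51 (edgeR adjusted p = 0.0654) and −2.17 (edgeR adjusted p = 0.179) did not pass the test. Those of TSDBGID.17295, at 1.64 (edgeR adjusted p = 0.231) and −0.784 (edgeR adjusted p = 0.671), did not pass it either. TSDBGID.4109 differed most between the MZ libraries of a stage at E37, at 66.1 and 7.11 CPM in replicates 2 and 3, whereas most of the 22 genes were higher in replicate 3.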
